A study of Mus musculus with 12 samples.

Results

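The complement genes described here were 9 genes measured in the hippocampus of epileptic mice: C1qa, C1qb, C1qc, C3, C4b, Cfb, Serping1, C3ar1 and C5ar1. They were found by gene symbol, as the array files give it, among the probes for transcripts. The 9 genes had 11 probes. A probe was analysed if some group had all 3 of its arrays well above background by the scanner software's test, and 10 of the 11 probes met this. This left 8 of the 9 genes, C5ar1 being the exception, out of 18179 genes with a probe that passed the same filter. Male C57BL/6N mice aged 12 weeks had received 50 nl of 20 mM kainate, which activates glutamate receptors, in the left dorsal hippocampus, and went on to have recurrent seizures. After 3 weeks the controls received saline intraperitoneally, and the treated mice received LPS (lipopolysaccharide from the outer membrane of Salmonella enterica serotype abortus equi) at 100 µg/kg in 1 dose. Whole hippocampus was taken 4 h or 24 h later, with 3 mice in each of the 4 groups per the labels, and 1 one-colour Agilent array per sample. Kainate had been given to all 4 groups, so no value here is from a hippocampus without it, and the labels used here do not say whether the injected or the opposite side was taken.

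Complement is a cascade of proteins that tag surfaces for removal and recruit phagocytes. The classical pathway starts when C1q, built of the C1qa, C1qb and C1qc chains, binds its target and its proteases cleave C4 and C2. The alternative pathway uses factor B (Cfb) to amplify the cleavage of C3, on which both routes meet, and the C1 inhibitor Serping1 holds the first proteases in check. The fragments released act through the receptors C3ar1 and C5ar1. In brain, C1q is known as a product chiefly of microglia, while C3 and C4 can come from astrocytes and microglia, and complement tagging of synapses is known from the developing and the diseased hippocampus.

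The probes decide what each value below refers to, so those whose position matters most are shown. Each is 60 bases long and is written 5′ to 3′ as in the deposited files, all in lower case because no base is singled out, with its position on mouse build mm9, minus strand. The C1qa and C1qb probes are shown because the proteins are chains of 1 complex. Their values at 4 h went in opposite directions with the main scaling used below, but in the same direction with some others. The C4b probe is shown because its accessions in the files belong to both C4b and its near-identical neighbour C4a in the RefSeq table, so that its signal cannot be assigned to C4b alone. The C3 probe shown is the dimmer of the pair for that gene. It spans 158 bases of the genome and the Cfb probe 357, so both cross at least 1 exon junction.
C1qa, probe A_51_P181451, chr4:136452409-136452468: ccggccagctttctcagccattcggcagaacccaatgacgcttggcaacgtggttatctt
C1qb, probe A_51_P351860, chr4:136436578-136436637: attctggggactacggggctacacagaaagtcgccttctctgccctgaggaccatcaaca
C4b, probe A_51_P428708, chr17:34866361-34866420: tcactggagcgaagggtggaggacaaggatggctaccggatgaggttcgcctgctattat
C3, probe A_52_P133594, chr17:57364538-57364695: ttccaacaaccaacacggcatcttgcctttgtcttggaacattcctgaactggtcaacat
Cfb, probe A_51_P413866, chr17:34993502-34993858: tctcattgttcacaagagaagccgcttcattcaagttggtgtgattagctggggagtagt
The other probes lay at chr4:136445766-136445825 (C1qc), chr17:57343416-57343475 (the brighter C3 probe, printed as 10 spots on each array), chr2:84605968-84607474 (Serping1, spanning 1507 bases), chr6:122798222-122798281 and chr6:122798696-122798755 (the brighter and the dimmer C3ar1 probe) and chr7:16833871-16833930 (C5ar1). The 3 C1q genes lay next to each other on chromosome 4. Exon and UTR annotation for mm9 was not used here.

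Values are log2 intensities relative to the 75th percentile of the array, so 0 is the level of that percentile, and levels are compared only within a probe. That percentile differed between groups: at 4 h it was 365 ± 12.3 (SD, n = 3) intensity units with saline and 663 ± 33.6 with LPS, and at 24 h 769 ± 60.7 with saline and 820 ± 117 with LPS. The share of transcript probes above background averaged 54.6%, 59.6%, 65.6% and 69.7% in that order, and 0 spots were saturated. Scaling to the E1A spike-in control probes in place of the percentile moved the median of all probes from -0.081 to 0.47 for LPS against saline at 4 h, from 0.0029 to -0.25 at 24 h, and from -0.020 to 0.65 between the saline groups. The calls went with it: at 4 h from 8757 higher and 10902 lower to 17299 and 2262, and at 24 h from 5754 and 5793 to 2179 and 13664. The 4 h arrays came from 3 slides scanned on 1 day and the 24 h arrays from 3 other slides scanned on another, with 1 saline and 1 LPS array of the same time on each slide. Time therefore cannot be told apart from slide set and scan day, and the saline groups stood apart from each other: 38.0% of 27682 probes were called higher at 24 h than at 4 h in saline and 41.5% lower. All 13 hippocampal neuron markers passed the filter. Tests are limma's, fitted over all 27682 probes and 12 arrays, with Benjamini-Hochberg adjusted p over all of them and a call at 0.05.

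At 24 h after LPS, 7 of the 8 complement genes were higher than in saline of the same time and 0 were lower, with limma. Cfb rose most, 9.96-fold, followed by C3 (2.43-fold) and Serping1 (2.22-fold), while C1qa, C1qb, C1qc and C4b rose 1.58-fold to 1.96-fold. The remaining gene, C3ar1, was 1.88-fold higher on its brighter probe without passing the test (adjusted p = 0.0888). Of all probes, 20.8% were called higher and 20.9% lower in this comparison. The median change of the 8 genes was 0.95 on the log2 scale, against 0.0029 over all probes. In 8 of 8 genes all LPS arrays lay above all saline arrays, which held for 27.6% of all probes. It follows from this that LPS was above saline on each of the 3 slides.

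At 4 h after LPS the genes divided. Cfb (2.77-fold), C3ar1 (at least 2.40-fold) and C1qb (1.29-fold) were higher than in saline 4 h, which is 3 of 8. C1qa, C1qc, C3 and C4b, which is 4 of 8, were called lower by 1.15-fold to 1.38-fold, but C1qa was higher after quantile normalization, in the deposited matrix and with spike-in scaling. C4b changed sign under these settings, and C1qc and C3 with spike-in scaling. Serping1 was called neither higher nor lower. Of all probes, 31.6% were called higher and 39.4% lower at this time, so neither count of complement genes stood far from those shares. The median change of the 8 genes was -0.099 on the log2 scale, against -0.081 over all probes.

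**Figure D1:**
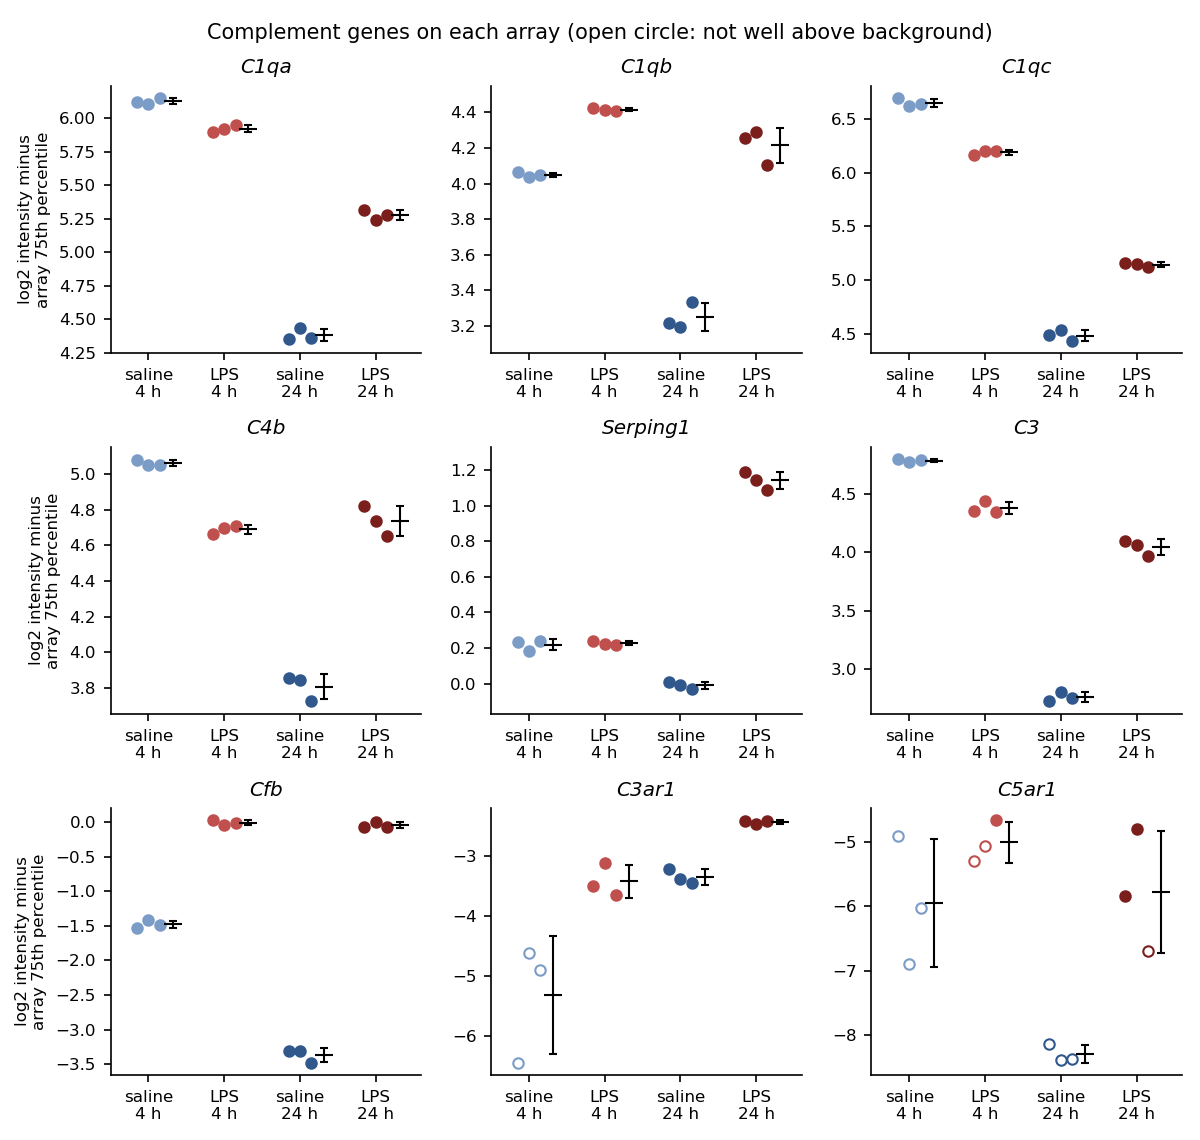
Normalised log2 intensity (log2 intensity minus the array's 75th percentile) of 9 complement genes on each array, 1 panel per gene by its brighter probe, with its own vertical scale; circles are the 3 arrays of each group, open where the probe was not well above background, and the black mark and bar are the mean and SD. At 24 h the LPS arrays of C1qa, C1qb, C1qc, C4b, Serping1, C3, Cfb and C3ar1 lie above the saline arrays, and saline 24 h lies below saline 4 h for each of these except C3ar1.

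C1qa, a chain of the recognition molecule of the classical pathway, read 6.12, 6.11 and 6.15 on the saline 4 h arrays and 5.90, 5.92 and 5.95 on the LPS 4 h arrays. At 24 h it read 4.35, 4.43 and 4.36 after saline and 5.32, 5.24 and 5.28 after LPS. All 4 groups stood apart, with saline 4 h highest, then LPS 4 h, LPS 24 h and saline 24 h. LPS minus saline was -0.21 ± 0.033 (SE) at 4 h (limma adjusted p = 0.000304), -0.20 without a call after normexp background correction (adjusted p = 0.0611), but 0.303 after quantile normalization, 0.18 in the deposited matrix and 0.342 with scaling to the spike-in controls. At 24 h the difference was 0.90 ± 0.033 (limma adjusted p = 4.71e-08), and within the 3 slides it ran from 0.81 to 0.96.

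C1qc, the third chain, gave the same order of groups. Its 4 h levels were 6.69, 6.61 and 6.64 with saline and 6.16, 6.20 and 6.20 with LPS. Its 24 h levels were 4.49, 4.53 and 4.44 with saline and 5.16, 5.15 and 5.12 with LPS. No group overlapped another. LPS minus saline was -0.46 ± 0.034 at 4 h (limma adjusted p = 9.4e-07), near 0 after quantile normalization (-0.00726, adjusted p = 0.846) and in the deposited matrix (-0.0235, adjusted p = 0.722), and 0.086 with spike-in scaling. At 24 h it was 0.66 ± 0.034 (limma adjusted p = 4.34e-07), the smallest of the 7 rises that passed the test.

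C1qb, the remaining chain of the complex, differed from both at 4 h with this scaling. It read 4.06, 4.04 and 4.05 in saline 4 h and 4.42, 4.41 and 4.41 in LPS 4 h, and here the LPS arrays were the higher ones. The 24 h arrays gave 3.21, 3.19 and 3.34 with saline and 4.26, 4.29 and 4.10 with LPS, again without overlap. LPS minus saline was 0.37 ± 0.052 at 4 h (limma adjusted p = 0.000122) and 0.97 ± 0.052 at 24 h (limma adjusted p = 5.92e-07). Across the 12 arrays C1qa and C1qc had a Pearson correlation of 0.98, and C1qb had 0.82 with C1qa and 0.68 with C1qc. These correlations describe arrays that share group, slide and brightness, and they are not tests.

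C4b encodes the C4 protein that the classical pathway cleaves after C1q has bound. With C4a included in what the probe may detect, it read 5.08, 5.05 and 5.05 with saline and 4.66, 4.70 and 4.71 with LPS at 4 h. The 24 h levels were 3.85, 3.84 and 3.73 with saline and 4.82, 4.73 and 4.65 with LPS. The LPS arrays of both times overlapped each other and lay between the saline groups. LPS minus saline was -0.37 ± 0.048 at 4 h (limma adjusted p = 6.13e-05), but 0.0075 after quantile normalization, 0.045 in the deposited matrix and 0.18 with spike-in scaling, so its direction at 4 h depended on the scaling. The 24 h difference was 0.93 ± 0.048 (limma adjusted p = 4.46e-07). A separate C4a probe with another sequence was above background only in LPS 24 h and passed the filter through that group alone, so its difference from saline 24 h (0.89) is a description and no second reading of C4b.

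Serping1, the inhibitor of the C1 proteases, moved less between the saline groups than the other members with this scaling, whereas with spike-in scaling C1qb did (-0.135 against 0.435 for Serping1). It read 0.23, 0.18 and 0.24 in saline 4 h and 0.24, 0.22 and 0.22 in LPS 4 h, which overlapped. Saline 24 h gave 0.0072, -0.0067 and -0.032 and LPS 24 h 1.19, 1.15 and 1.09, far apart from every other group. The difference at 4 h was 0.0081 ± 0.032 (limma adjusted p = 0.833) and its sign varied between slides, from -0.017 to 0.056. Median scaling made it -0.16 and spike-in scaling 0.56, so no direction is given for 4 h. The difference at 24 h was 1.15 ± 0.032 (limma adjusted p = 6.55e-09), with 1.12 to 1.18 within slides.

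C3, the protein on which the pathways meet, was read by a bright and a dim probe. The bright one, the mean of 10 spots, gave 4.80, 4.77 and 4.79 with saline and 4.36, 4.44 and 4.35 with LPS at 4 h. Its 24 h levels were 2.73, 2.81 and 2.76 with saline and 4.10, 4.07 and 3.97 with LPS. The 4 groups did not overlap, and the 10 spots of an array had an SD of 0.052 to 0.088 log2 units. LPS minus saline was -0.40 ± 0.042 at 4 h (limma adjusted p = 1.29e-05), near 0 after quantile normalization (-0.0527, adjusted p = 0.252), -0.145 as the mean of both probes (adjusted p = 0.544) and 0.145 with spike-in scaling. The 24 h difference of the bright probe was 1.28 ± 0.042 (limma adjusted p = 2.13e-08).

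The dim C3 probe, nearer the start of the transcript, was well above background only on the 3 LPS 24 h arrays. Its levels there were -6.19, -5.91 and -6.13, against -7.38, -8.61 and -6.83 in saline 24 h. The LPS arrays lay above the saline arrays, but the probe passed the filter only through the LPS 24 h group, so the difference of 1.53 ± 0.41 is given as a description with no test. At 4 h neither group was measured above background, so no fold is given and the fall of the bright probe has no second reading.

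Cfb, which supplies the protease of the alternative pathway, changed most at 24 h. It read -1.52, -1.42 and -1.49 in saline 4 h and 0.028, -0.043 and -0.0076 in LPS 4 h. Saline 24 h gave -3.30, -3.31 and -3.48 and LPS 24 h -0.073, 0.0034 and -0.070. The LPS arrays of both times reached overlapping levels, and saline 24 h was the lowest group. LPS minus saline was 1.47 ± 0.053 at 4 h (limma adjusted p = 7.56e-09) and 3.32 ± 0.053 at 24 h (limma adjusted p = 4.97e-10), higher on every slide. The larger difference at 24 h therefore went with a lower saline level, since the LPS means were -0.0076 at 4 h and -0.047 at 24 h.

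C3ar1, the receptor of the C3a fragment, lay near the limit of detection. Its brighter probe read -6.44, -4.62 and -4.90 in saline 4 h, with 0 of 3 above background, and -3.50, -3.12 and -3.66 in LPS 4 h. At 24 h all 6 arrays measured it, at -3.22, -3.39 and -3.46 in saline and -2.42, -2.48 and -2.43 in LPS. LPS arrays lay above saline arrays at both times. At 4 h LPS was at least 2.40-fold higher (measured difference 1.89 ± 0.39, limma adjusted p = 0.00144), but with normexp background correction the difference was 0.24 (adjusted p = 0.337). At 24 h the difference was 0.91 ± 0.39 (limma adjusted p = 0.0888). The saline 4 h arrays, with an SD of 0.98, enter that error: without saline 4 h replicate 1 the adjusted p was 0.000804, and with only the 24 h arrays in the fit it was 0.000454.

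The dimmer C3ar1 probe gave a different picture at 4 h. It read -5.24, -5.44 and -5.61 in saline 4 h and -5.11, -5.86 and -5.10 in LPS 4 h, with 1 of these 6 arrays well above background and overlapping groups (0.071 ± 0.20, limma adjusted p = 0.767). At 24 h it read -5.94, -5.60 and -5.64 in saline and -4.67, -4.43 and -4.36 in LPS, without overlap. The probe passed the filter only through the LPS 24 h group, so that difference of 1.24 ± 0.20 is a description with no test. The rise of C3ar1 at 4 h thus rests on 1 of its 2 probes, and no call at 24 h is made for this gene.

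C5ar1, the receptor of the C5a fragment, was not tested because no group had all 3 arrays well above background. At 4 h it read -4.91, -6.89 and -6.03 with saline and -5.30, -5.06 and -4.66 with LPS. At 24 h it read -8.14, -8.38 and -8.37 with saline and -5.84, -4.80 and -6.69 with LPS. The 4 h groups overlapped and the 24 h groups did not. Of these arrays, 1 of 3 with LPS at 4 h and 2 of 3 with LPS at 24 h were above background, and 0 of 3 in either saline group. LPS exceeded saline on every slide, but most of these levels are only upper bounds and no fold is given.

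**Figure D2:**
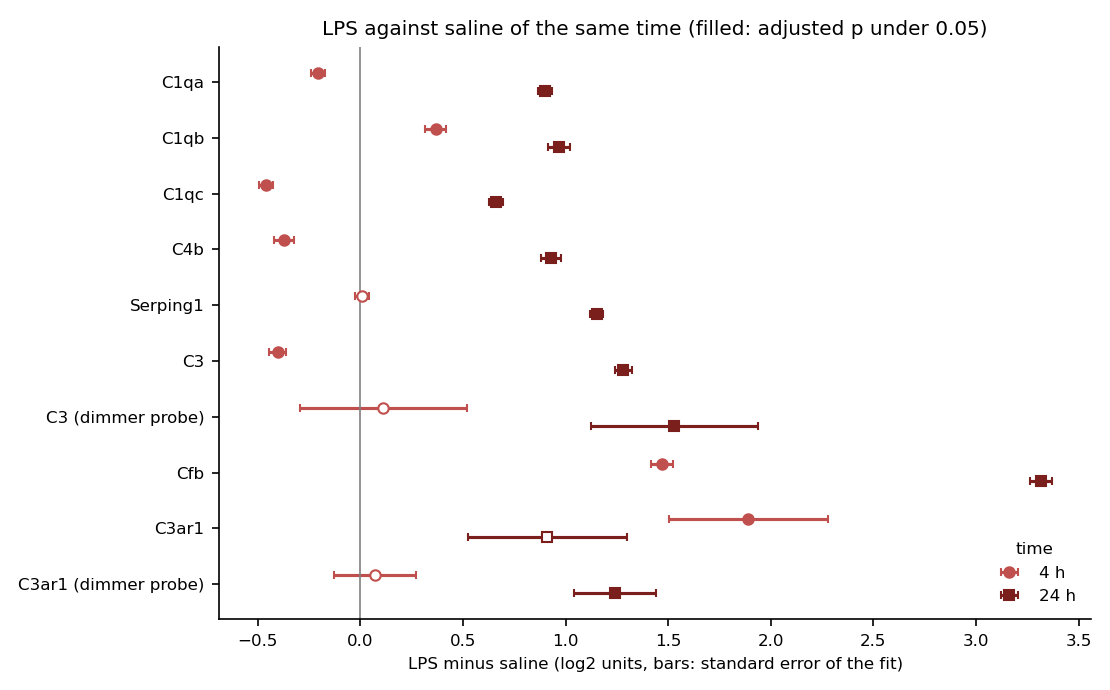
LPS minus saline of the same time (horizontal axis, log2 units) for the 10 complement probes that passed the filter; circles are 4 h, squares 24 h, bars the standard error of the fit, and filled symbols have an adjusted p under 0.05, which at 24 h is no test for the dimmer C3 and C3ar1 probes, kept only through the LPS 24 h arrays. The 24 h values are all above 0, up to 3.32 for Cfb, while at 4 h C1qa, C1qc, C4b and C3 lie between -0.46 and -0.21 with this scaling, and C1qa and C4b change sign after quantile normalization and C1qc and C3 with spike-in scaling.

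The direct test of the difference between times asks whether the LPS response was larger at 24 h than at 4 h. It was larger for 7 of 8 genes with limma and smaller for 0, where 37.6% of all probes were called higher and 28.3% lower. The difference of the responses was 1.84 ± 0.075 for Cfb, 1.68 ± 0.060 for C3, 1.30 ± 0.068 for C4b, 1.14 ± 0.045 for Serping1, 1.12 ± 0.048 for C1qc, 1.10 ± 0.047 for C1qa and 0.60 ± 0.074 for C1qb. Their limma adjusted p ran from 1.44e-08 (C3) to 5.48e-05 (C1qb). With spike-in scaling C1qb changed sign, to -0.203 (adjusted p = 0.0535), and the other 6 were between 0.30 (C1qa) and 1.04 (Cfb), all still called. For C3ar1 the brighter probe gave -0.98 ± 0.55 (limma adjusted p = 0.143) and the dimmer one, untested because of how it passed the filter, 1.17 ± 0.28, so its probes differed in sign. The value of the brighter probe was called lower with spike-in scaling (-1.78, adjusted p = 0.0119) and without saline 4 h replicate 2 (-1.33, adjusted p = 0.0414).

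The saline groups, which carry no LPS, themselves differed in these genes. At 24 h 7 of 8 genes were lower than at 4 h and 1 was higher, C3ar1, against the 41.5% and 38.0% of all probes given above. The falls were -2.16 ± 0.034 for C1qc, -2.02 ± 0.042 for C3, -1.88 ± 0.053 for Cfb, -1.75 ± 0.033 for C1qa, -1.26 ± 0.048 for C4b, -0.80 ± 0.052 for C1qb and -0.23 ± 0.032 for Serping1, with limma adjusted p from 2.32e-11 (C1qc) to 7.97e-05 (Serping1). Serping1 turned to 0.435 with spike-in scaling. C3ar1 was at least 2.52-fold higher in saline 24 h on its brighter probe (limma adjusted p = 0.000937), -0.124 with normexp background correction, and not called on the dimmer one (-0.30, adjusted p = 0.194). For C1qa, C1qc, C3 and C4b this distance between control groups was larger than the LPS response at either time with this scaling. With spike-in scaling that held for C1qa, C1qc and C3, but C4b gave -0.59 between saline groups and 0.673 for LPS at 24 h.

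The choice of control arrays therefore decided several directions. Set against saline 24 h in place of saline 4 h, the LPS 4 h arrays were higher for 7 of 8 genes: C1qa by 1.54, C1qb by 1.17, C1qc by 1.70, C3 by 1.62, C4b by 0.88, Cfb by 3.36 and Serping1 by 0.24, with limma adjusted p from 3.22e-11 to 8.85e-05. Of all probes 35.5% were called higher and 35.4% lower there. C3ar1 gave -0.072 (adjusted p = 0.877). Set against saline 4 h, the LPS 24 h arrays were lower for C1qa (-0.85), C1qc (-1.50), C3 (-0.74) and C4b (-0.33) and higher for C1qb (0.17), Serping1 (0.92), Cfb (1.43) and C3ar1 (2.88), all with limma adjusted p of 0.0141 or less, where 39.9% of all probes were called higher and 40.0% lower. Cfb and C1qb were thus higher after LPS at both times against either saline group. These comparisons cross slides and scan days.

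**Figure D3:**
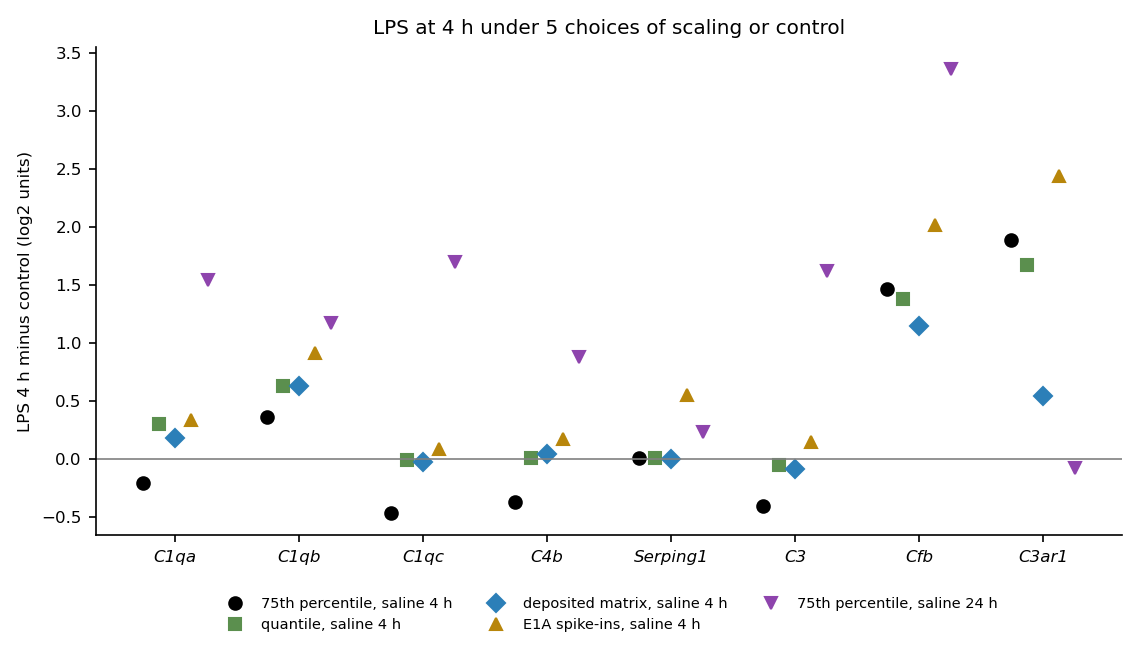
LPS 4 h minus control (vertical axis, log2 units) for 8 complement genes under 5 choices, with 1 symbol per choice as named in the legend. Cfb and C1qb lie above 0 under each choice; C1qa and C4b lie below 0 only with the 75th percentile and saline 4 h, C1qc and C3 are near 0 after quantile normalization and in the deposited matrix, and C3ar1 falls to -0.072 against saline 24 h.

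Markers of cell types also differed between the groups, and not all lists went the way of these genes. Of 12 microglia markers, 3 were higher and 6 lower at 4 h, and 10 higher and 1 lower (P2ry12) at 24 h with limma. Their summed linear level, in units of the 75th percentile, was 226 to 234 with saline and 176 to 186 with LPS at 4 h, and 87.2 to 93.0 with saline and 117 to 119 with LPS at 24 h, the same order of groups as for C1qa, C1qc and C3. With spike-in scaling 7 were higher and 3 lower at 4 h, and 5 higher and 2 lower at 24 h, where the median change went from 0.39 to 0.13. All 12 passed the filter. In such bulk tissue, fewer cells of a type and less RNA per cell cannot be told apart. Astrocyte markers summed to 613 to 630, 448 to 465, 321 to 327 and 356 to 359 in that order of groups, with 4 of 10 higher and 5 lower at 4 h and 7 higher and 2 lower at 24 h.

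Of 9 neutrophil and blood monocyte markers that passed, 6 were higher after LPS at 4 h and 7 at 24 h, with 0 lower at either time in the limma fit. Of these 9, 4 passed the filter through 1 group only, so the counts are descriptions. With normexp background correction 2 were higher at 4 h and 3 at 24 h, and the median change fell from 2.44 to 0.12 and from 1.16 to 0.12. In the deposited matrix 8 and 4 were higher, and with median scaling 1 was lower at 4 h. Their sums were 19.4 to 19.6 with saline and 24.6 to 25.4 with LPS at 4 h, and 9.5 to 10.2 with saline and 20.9 to 22.6 with LPS at 24 h. Most of each sum came from 1 marker, Ly6c2, with mean log2 levels of 4.24, 4.22, 3.18 and 4.34 in that order. Ly6c2 itself was not called at 4 h (-0.026, limma adjusted p = 0.591), so the sums are no level of the list as a whole. Elane was at background on all 12 arrays, and Camp and Ccr2 did not pass the filter. Thalamus markers, which mark neighbouring tissue in a dissection, summed to 32.9 to 33.9, 20.2 to 20.5, 12.3 to 12.8 and 14.8 to 16.2. Most of the saline 4 h sum came from Ntng1 and Tcf7l2. Of the 7, 2 were higher and 4 lower at 4 h, and 6 higher and 0 lower at 24 h. Between the saline groups 2 were higher and 4 lower at 24 h, so these sums are no level of the list as a whole. The sum for choroid plexus and ependyma was 45.7 to 48.0, 38.9 to 39.9, 30.1 to 31.6 and 42.9 to 44.8. Of 11 endothelial markers, 1 was higher and 10 lower at 4 h, while 9 were higher and 0 lower at 24 h. Lymphocyte markers were lower for 6 of 8 at 4 h and higher for 4 at 24 h. Of these 8, 2 passed the filter through 1 group only (Cd4 and Cd79a). Cd4 was called lower at 4 h with 0 arrays of that time above background, so the counts are descriptions. The sums were 10.2 to 10.5, 4.77 to 5.17, 3.38 to 3.81 and 4.23 to 4.75 in the order saline and LPS at 4 h, then saline and LPS at 24 h. Of 4 red blood cell markers, 3 were lower at each time, and their lowest sums were 265, 102, 117 and 63.3 in that order. Of 13 hippocampal neuron markers, 7 were higher and 3 lower at 4 h and 1 higher and 6 lower at 24 h, with sums of 199 to 203, 148 to 151, 138 to 144 and 125 to 129. Most of the saline 4 h sum came from 1 marker, Bok, with mean log2 levels of 6.997, 5.776, 4.822 and 5.078 in that order. The median change of the 13 at 4 h was 0.47, so these sums are no level of the list as a whole. Between the saline groups, 8 of the 13 were higher at 24 h than at 4 h and 3 lower. Meningeal fibroblast markers summed to 55.7 to 56.5 with saline and 80.7 to 83 with LPS at 4 h. At 24 h their sums were 70.2 to 76.5 with saline and 115 to 121 with LPS, so saline 4 h was lowest. Of these 10 markers, 5 were higher and 4 lower at 4 h, and 3 higher and 3 lower at 24 h. Most of each sum came from 1 marker, Ptgds. The part of any of these cell types or tissues in the complement values was not tested.

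The rest of the complement system was covered by 54 listed genes, of which 50 were on the array and 36 passed the filter. At 24 h 19 of the 36 were higher after LPS, 4 lower and 13 neither, with limma, and the median change was 0.51. Over all probes 20.8% were called higher and 20.9% lower at 24 h, and 31.6% and 39.4% at 4 h. These shares also apply to the roles below. With normexp 12 were higher and 1 lower at 24 h, with a median of 0.14, and in the deposited matrix 15 and 3, with a median of 0.091. These settings called 2186 of 27682 probes higher and 1918 lower, and 3832 and 5168, respectively. Of the 36, 3 passed the filter through 1 group only (C4a, Mbl2 and Csmd1), so the counts describe the genes measured. At 4 h 10 were higher, 16 lower and 10 neither, with a median of -0.17, so neither count stood far from the shares over all probes. With spike-in scaling the 4 h counts turned to 19 higher and 5 lower, and those at 24 h became 14 and 9. All 27682 probes then gave 17299 higher and 2262 lower at 4 h, and 2179 and 13664 at 24 h. The split at 4 h thus depended on the scaling, as it did over all probes. Against saline of the other time, 22 of 36 were higher and 5 lower in LPS 4 h, and 13 higher and 18 lower in LPS 24 h. The shares of all probes were 35.5% higher and 35.4% lower for LPS 4 h, and 39.9% and 40.0% for LPS 24 h.

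Among classical and lectin pathway genes at 24 h, 6 of 12 were higher and 2 lower. C1s1 and C1rb, which encode proteases that ride on C1q, rose by 1.22 ± 0.059 (limma adjusted p = 2.8e-07; 1.38 on a second C1s1 probe) and 1.33 ± 0.077 (limma adjusted p = 9.57e-07), and C2, which is cleaved together with C4, rose by 0.90 ± 0.066 (limma adjusted p = 5.08e-06; 1.08 on a second probe). C1rb belongs with C1ra, and C1s1 with C1s2, to pairs of near-identical genes, so the split between copies is uncertain. Mbl2, a lectin that starts the lectin pathway, was above background only in saline 24 h, through which alone it passed the filter, and its difference at 24 h (-1.49) is a description with no test. At 4 h 1 of the 12 was higher and 6 lower: C1rb gave -1.08 ± 0.077 (limma adjusted p = 7.51e-07). Masp1, a protease of the lectin pathway, gave -0.40 ± 0.044 (limma adjusted p = 1.59e-05), but 1.17 on its other probe (limma adjusted p = 1.51e-05) and 0.14 with spike-in scaling, so it has no settled direction. Mbl2 also passed the test at 4 h, as lower, with neither group above background, so no fold is given.

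Cfp, encoding properdin, which stabilises the alternative pathway's protease, was higher at both times, by 0.83 ± 0.049 at 4 h (limma adjusted p = 1.96e-07) and 0.62 ± 0.049 at 24 h (limma adjusted p = 8.18e-06). Cfd, the other alternative pathway gene listed, was at background on all 12 arrays. Of 4 terminal pathway genes, 2 were higher at 24 h: Hc, the mouse C5 gene, by 0.59 ± 0.059 (limma adjusted p = 4.15e-05), and C8b by at least 1.42-fold (limma adjusted p = 0.0138). C6 gave 0.36 (adjusted p = 0.425). At 4 h C8b was at least 1.94-fold lower (limma adjusted p = 0.00016), while Hc gave -0.37 ± 0.059 (limma adjusted p = 0.000282) and C8g -0.35 ± 0.077 (limma adjusted p = 0.00232), both of which turned positive with spike-in scaling (0.18 and 0.20). C7, C8a and C9 were at background throughout.

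Of 13 regulators, 6 were higher and 1 lower at 24 h, and 5 higher and 5 lower at 4 h. Cd55, a membrane protein that speeds decay of the C3-cleaving enzymes, gave 0.54 ± 0.089 at 24 h (limma adjusted p = 0.00105), but -0.039 on a second probe (adjusted p = 0.888). C4bp, encoding the C4b-binding protein, rose by 1.46 ± 0.13 at 4 h (limma adjusted p = 3.48e-06) and fell at 24 h (-0.45 ± 0.13, adjusted p = 0.0192). Susd4 fell at 4 h (-0.71 ± 0.034, limma adjusted p = 4.96e-08). Cd59a, which blocks the membrane attack complex, gave -0.34 ± 0.029 at 4 h (limma adjusted p = 2.79e-06), turning to 0.20 with spike-in scaling, and its second probe gave -0.030 (adjusted p = 0.9). Cfi gave -1.25 ± 0.21 at 4 h (limma adjusted p = 0.000349) with 3 of the 6 arrays above background.

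Of 6 receptors, 4 were higher and 1 lower at 24 h, and 3 higher and 2 lower at 4 h. Cd93 rose by 1.36 ± 0.041 at 24 h (limma adjusted p = 1.14e-08), and by 2.55 on a second probe (adjusted p = 0.000159). Itgam, the CD11b chain of complement receptor 3, rose by 0.74 ± 0.027 at 24 h (limma adjusted p = 4.2e-08) and gave -0.57 ± 0.027 at 4 h (limma adjusted p = 4.43e-08), which with spike-in scaling became -0.021 (adjusted p = 0.779). The second Itgam probe gave 0.20 at 24 h (adjusted p = 0.436) and -0.64 at 4 h (adjusted p = 0.0126), so the rise at 24 h rests on 1 probe. Itgax, the CD11c chain of complement receptor 4, ran the other way, with 0.98 ± 0.036 at 4 h (limma adjusted p = 8.49e-09) and -0.87 ± 0.036 at 24 h (limma adjusted p = 9.53e-08). A second Itgax probe gave -0.095 at 4 h (adjusted p = 0.747) and -0.61 at 24 h (adjusted p = 0.0762), so the rise at 4 h rests on 1 probe. C1qbp, a mitochondrial protein that can bind C1q, fell by 0.92 at 4 h (limma adjusted p = 7.24e-09).

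**Figure D4:**
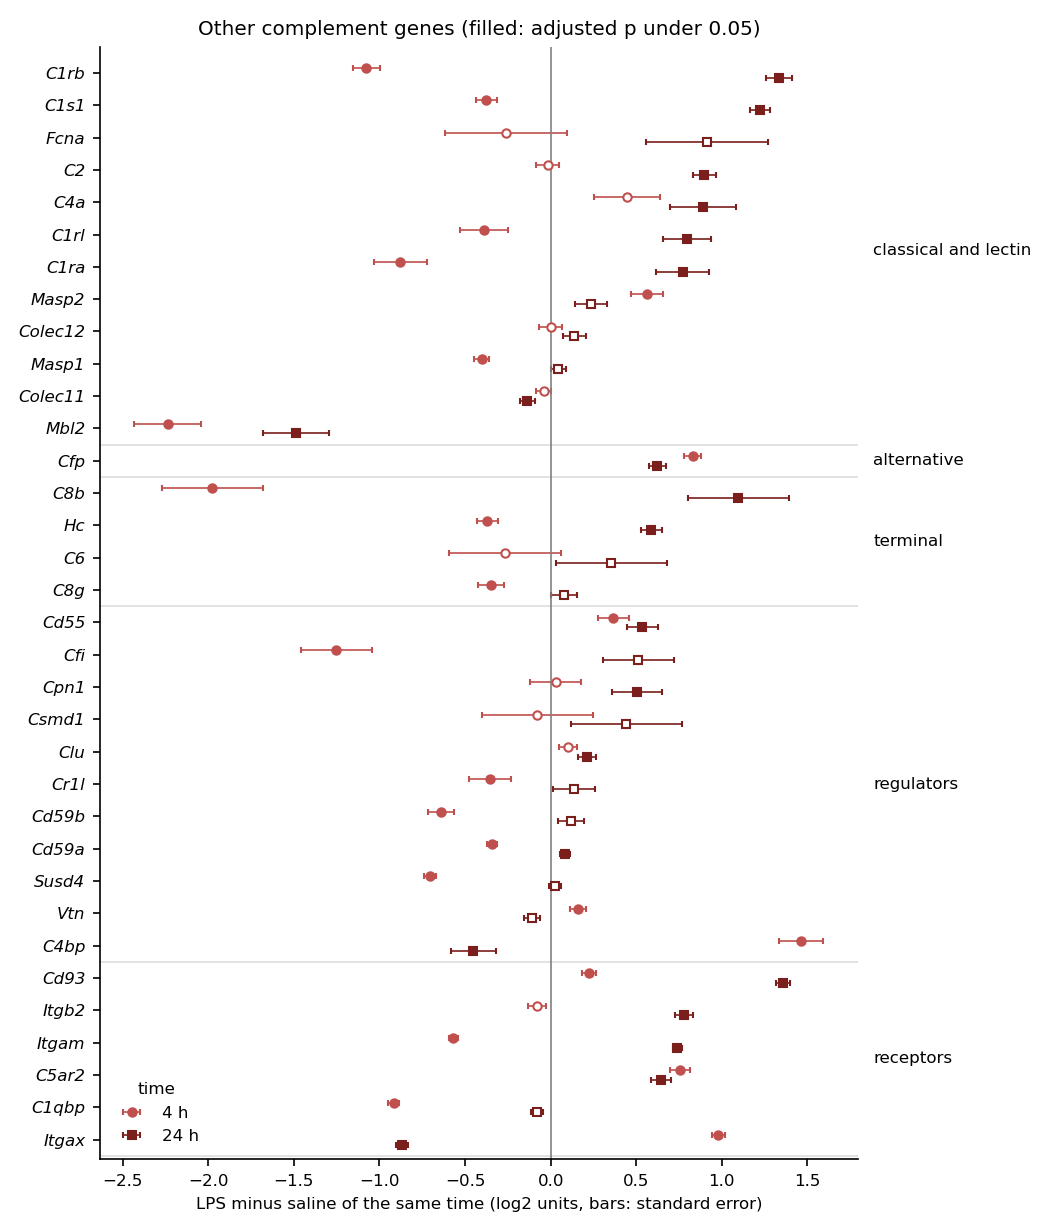
LPS minus saline of the same time (horizontal axis, log2 units) for 34 of the 36 other complement genes that passed the filter, grouped by role and ordered by the 24 h value; circles are 4 h, squares 24 h, bars the standard error, and filled symbols passed an adjusted p of 0.05. Over all 36, 19 were higher and 4 lower at 24 h, against 20.8% and 20.9% of all probes. At 4 h 10 were higher and 16 lower with this scaling, against 31.6% and 39.4% of all probes. With spike-in scaling 19 were higher and 5 lower at 4 h, against 17299 and 2262 of 27682 probes.

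Promoter windows from RefSeq (build GRCm38.p6), from 250 bases before to 50 after the annotated start, were at hand for 5 of the 9 genes: C1qb, C1qc, C3, C3ar1 and C5ar1. They were searched on both strands for an interferon-gamma activated site (TTCNNNGAA), an interferon-stimulated response element, an NF-kappaB site, a PU.1 site (GAGGAAGT) and a TATA box (TATAAA). Of 32851 promoter windows, 8.30%, 3.44%, 5.56%, 3.20% and 13.6% held these in turn. The windows of C1qb and C5ar1 held no match. The 3 windows with a match are shown with the matched letters in capitals: PU.1 on the opposite strand in C1qc, TATAAA in C3, and TATAAA followed by an NF-kappaB match on the opposite strand in C3ar1. C1qc and C3 were higher at 24 h after LPS and C3ar1 was not called, and the matches are descriptions of letters only.
C1qc, chr4:136892865-136893164, minus strand: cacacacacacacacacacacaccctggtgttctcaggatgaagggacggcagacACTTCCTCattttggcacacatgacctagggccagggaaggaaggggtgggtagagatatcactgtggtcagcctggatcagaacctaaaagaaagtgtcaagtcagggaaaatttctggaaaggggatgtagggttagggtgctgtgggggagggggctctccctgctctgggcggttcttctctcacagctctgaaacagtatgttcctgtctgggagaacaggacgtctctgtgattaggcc
C3, chr17:57228087-57228386, minus strand: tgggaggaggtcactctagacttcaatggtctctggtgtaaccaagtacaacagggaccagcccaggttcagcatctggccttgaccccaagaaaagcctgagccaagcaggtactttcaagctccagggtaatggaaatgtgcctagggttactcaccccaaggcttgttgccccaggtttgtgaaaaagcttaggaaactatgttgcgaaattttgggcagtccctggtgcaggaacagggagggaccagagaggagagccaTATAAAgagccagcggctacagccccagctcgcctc
C3ar1, chr6:122856108-122856407, minus strand: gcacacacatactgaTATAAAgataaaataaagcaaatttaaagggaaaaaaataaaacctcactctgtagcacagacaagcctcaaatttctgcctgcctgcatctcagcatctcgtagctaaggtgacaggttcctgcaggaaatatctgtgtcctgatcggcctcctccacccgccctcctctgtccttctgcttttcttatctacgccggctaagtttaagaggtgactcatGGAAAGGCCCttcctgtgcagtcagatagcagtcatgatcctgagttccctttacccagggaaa
Counted in bases from the start site, the C1qc match begins at -195, the C3 match at 15 and the C3ar1 matches at -235 and -14.

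The genes whose pattern over the 12 arrays was most like each complement gene were taken by Pearson correlation among 15009 named genes. With 4 groups that stand apart, such correlations mainly follow the group means, and no shared function or control is read from them. For C3 they were Tspo (0.9985), Alox5ap (0.9981) and Ctsh (0.9977), and for C4b Folr2 (0.9948), H2-K2 (0.9934) and Btk (0.9929). For C1qb they were Trim30a (0.996), Abi3 (0.9958) and Phf11d (0.9922), and for C1qa Phyhd1, Epsti1 and Dynlrb2 (0.9971 to 0.9983). Those for C1qc were Gng8, Irx1 and Synpo2 (0.9981 to 0.9987), for Cfb Ly6a, Cd244a and Etnppl (0.993 to 0.996), for Serping1 Pon1, Pdlim5 and Tinagl1 (0.9822 to 0.9842) and for C3ar1 Il6ra, Rgl3 and Dhx37 (0.9748 to 0.9852). Among the members themselves, C3 and C1qa had 0.98, C3 and C4b 0.98 and C1qb and Cfb 0.96, while Serping1 had 0.091 with C1qa and C3ar1 -0.66 with C1qc.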

How the data were processed

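The authors' deposited files hold the processed intensity of each spot, background-subtracted and detrended by Agilent Feature Extraction 10.7.3.1 per the file headers (9.1 per the submitters' processing notes), with nothing scaled between arrays, and probe positions on mm9. The deposited matrix of log2 values equals normexp background correction (offset 50) plus quantile normalization of the same arrays, to within 4.97e-14 over 40929 probes with 1 spot.

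Here, 926 outlier spots were left out, spots of a probe averaged as log2, and each array's 75th percentile subtracted. Of 41174 probes, 27682 had all 3 arrays of some group well above background. Group means of all 12 arrays were fitted with limma 3.58.1 in R 4.3.3 (empirical Bayes, two-sided) with calls at 0.05 after Benjamini-Hochberg adjustment across the 27682 probes. The procedure was tested on simulated data. Of several probes of a gene, the brightest on average stands for it. A probe that passed the filter only through the higher group of a comparison is described there without a test. "At least" folds set the measured group against, per array, the higher of the lowest signal well above background and the probe's own.

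Named are all 9 genes, of the other complement genes up to 3 per role with the smallest adjusted p and those at least 2-fold past the threshold, and the 3 genes most correlated with each member. The members and lists were chosen with earlier results of these data known. Alternatives were tried for the scaling, background correction, filter, use of the deposited matrix, probe rule, arrays in the fit, blocks, moderation, weights, thresholds, control arrays and leaving out each array; scaling to E1A spike-in probes was added after seeing the data. That arrays come from separate mice rests on the labels, so p-values measure the spread between these arrays, and 3 arrays per group limit the precision. Results of some genes covered by the naming rule are not reported here.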

Additional observations from a re-analysis of the deposited data

Results flagged for a closer look

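The LPS responses of 7 complement genes differed between 4 h and 24 h by a test of the difference itself, the contrast of both responses in the limma fit. The response at 24 h minus that at 4 h was 1.84 for Cfb, 1.68 for C3, 1.30 for C4b, 1.14 for Serping1, 1.12 for C1qc, 1.10 for C1qa and 0.601 for C1qb on the log2 scale. The differences of C1qa, C1qc, C3 and C4b join a lower value at 4 h, whose sign depended on the scaling, with a higher one at 24 h. The saline groups of the 2 times differed in the same genes by -1.75 (C1qa), -2.16 (C1qc), -2.02 (C3) and -1.26 (C4b), and by -1.88 for Cfb, and time cannot be told apart from slide set and scan day.

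C5ar1, which entered no test, was well above background on 2 of 3 LPS 24 h arrays and on 0 of 3 arrays of either saline group.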

How the results depend on the processing

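At 24 h, 234 of 247 values of single genes under the alternatives kept direction and call, and at 4 h 213 of 247. Both counts include the fits that left out an array of either time. The count of genes higher at 4 h, 3, became 7 against saline 24 h and with spike-in scaling and 8 against saline of both times. All 27682 probes gave 9816, 17299 and 7746 higher under these 3 settings in turn, so the spike-in count goes with a shift of the whole array. The count lower at 4 h, 4, became 0 under each of these, after quantile normalization, in the deposited matrix and with a 1.5-fold minimum. The probes called lower were 9788, 2262, 9942, 10071, 9410 and 4294 in that order. At 24 h the 7 higher and 0 lower became 4 and 4 against saline 4 h, and 1 was lower against saline of both times. All 27682 probes gave 11050 higher and 11073 lower in the first, and 9784 and 9677 in the second. The difference between times gained 1 lower gene, C3ar1, with spike-in scaling, where 18730 of 27682 probes were called lower. Over the fits leaving out an array its count of lower genes ran from 0 to 1. The 1 came without saline 4 h replicate 2, where 7742 probes were called lower. Between saline groups the 1 higher gene became 0 with normexp and when probes had to be above background on all 12 arrays, and 2 with spike-in scaling. The probes called higher were 5562 of 27682, 7696 of 21418 and 18143 of 27682 in turn.

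The following single values changed sign. At 4 h, C1qa was 0.303 after quantile normalization, 0.18 in the deposited matrix, 1.54 against saline 24 h, 0.668 against saline of both times and 0.342 with spike-in scaling. C4b was 0.00752, 0.0452, 0.884, 0.256 and 0.176 under the same settings in turn. Under the last 3 of these, C1qc was 1.70, 0.619 and 0.086 and C3 was 1.62, 0.608 and 0.145, and C3ar1 was -0.0722 against saline 24 h. At 24 h, against saline 4 h, C1qa was -0.848, C1qc -1.50 (-0.421 against saline of both times), C3 -0.739 and C4b -0.326. With spike-in scaling C1qb was -0.203 for the difference between times and Serping1 0.435 between saline groups, and with normexp C3ar1 was -0.124 there. Apart from the construction of each setting, the cause was not tested.

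Leaving out each array kept 96 of 96 calls at 4 h and 95 of 96 at 24 h. Each count covers all 12 arrays. Leaving out an array of the other time left the compared group means unchanged and altered only the error of the fit. Same-numbered saline and LPS arrays had deviations correlated at 0.0797, 0.165 and -0.151 at 4 h and 0.0312, 0.076 and 0.0669 at 24 h. At 24 h same-numbered arrays shared a slide, and the others gave -0.064 to 0.00645. With 3 arrays per group, these values do not settle whether the numbers pair the samples. The replicate block changed no call of the 8 genes at either time: 3 were higher and 4 lower at 4 h and 7 higher and 0 lower at 24 h. A block for the slide changed none either. Low signal limits C3ar1, C5ar1 and the dimmer C3 probe.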
